A study of Mus musculus with 9 samples.

Results

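Gdf3, Dppa3 and Nanog are neighbours on mouse chromosome 6, and the CpG sites at chr6:122550001-122665000 (mm9), a span that holds all 3 genes, were examined here. The span was set by its coordinates and not by its methylation. It held 1213 of the 18722682 CpG sites listed in either table of the study. Primordial germ cells, the embryonic precursors of eggs and sperm, were compared between wild-type (WT) and Tet1 -/- (Tet1-null) female C57BL/6 embryos at embryonic day 13.5 by whole-genome bisulfite sequencing, which reads methylated cytosines as C and unmethylated ones as T. By the labels, 4 libraries were made from WT cells (1575 to 5251 per library) and 5 from Tet1-null cells (1400 to 4700). Of the Tet1-null libraries 2 list the same number of cells (3266) and differ in kit and sequencing run, and whether they came from the same cells is not given in the sources used here. Each genotype was available as 1 table in which its libraries were pooled, so differences below are between 2 pools and have no replicate check. Intervals and limits cover counting error only and leave out variation between libraries. They count each read at each site as independent. PCR copies carry no molecular identifiers and neighbouring sites share reads, so intervals, limits and p-values can understate even the counting error. The kind of null allele is not given in the sources used here, and germ cell markers were not checked because methylation tables hold no expression values.

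Nanog is a homeobox transcription factor of the pluripotency network of the early embryo. Dppa3 (also called Stella) is a maternal factor that protects methylated DNA in the zygote and a classic marker of primordial germ cells. Gdf3 is a secreted ligand of the TGF-beta family. Primordial germ cells express this pluripotency programme and erase most of their DNA methylation as they enter the gonad. Tet1 oxidises 5-methylcytosine, a step toward its removal. Comparing germ cells with and without it asks how far demethylation of such genes depends on it.

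The span as a whole was little methylated in both pools and its Tet1-null level was not above its WT level. In the WT pool 62 of 1852 reads over its CpG sites were methylated, a level of 3.35% (Wilson 95% interval 2.62 to 4.27%). In the Tet1-null pool 82 of 3087 reads were methylated, a level of 2.66% (2.15 to 3.29%). The Tet1-null minus WT difference was -0.691 points (Newcombe 95% interval -1.74 to 0.270), and the interval included 0. In 1 draw of reads thinned to equal depth per site it was -1.29 points (-2.58 to -0.0329), which left out 0. It was -1.22 points (-2.66 to 0.0859) where both pools had 2 or more reads at a site, -1.71 (-3.85 to 0.0695) with 3 or more and -3.13 (-11.1 to 3.58) with 5 or more. A level is the share of methylated reads over all cells of a pool, so partial methylation in many cells and full methylation in few cells cannot be told apart. Depth was low, with 887 sites at a mean of 2.09 reads in the WT pool and 1058 sites at 2.92 reads in the Tet1-null pool. The mitochondrial genome, taken as a measure of cytosines left unconverted, stood at 1.66% and 1.29%.

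Gene positions were tied to the sites in different ways. The start of Nanog was found by matching the CpG spacing of the RefSeq sequence around it (GRCm38.p6) to the sites listed in the tables, where 5 of its 6 CpGs lay at 1 place in the region searched, with no listed site off a CpG. This put the Nanog start at position 122657507 on the plus strand. Apobec1, the upstream neighbour that encodes an RNA-editing cytidine deaminase, was placed likewise with 8 of 9 CpGs, and its start at 122552462 on the minus strand marks the left end of the cluster. Dppa3 and Gdf3 had no entry in the sequence table. For Dppa3 the approximate position 122576000 was used. By the gene order of RefSeq, Gdf3 lies between Apobec1 and Dppa3, so its values are those of that whole stretch.

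The 250 bases before the Nanog start carry the promoter whose methylation is described next. They are shown 5′ to 3′ from RefSeq, with the CpGs in capitals, at chr6:122657257-122657506 on the plus strand of mm9 by the spacing match.
Nanog: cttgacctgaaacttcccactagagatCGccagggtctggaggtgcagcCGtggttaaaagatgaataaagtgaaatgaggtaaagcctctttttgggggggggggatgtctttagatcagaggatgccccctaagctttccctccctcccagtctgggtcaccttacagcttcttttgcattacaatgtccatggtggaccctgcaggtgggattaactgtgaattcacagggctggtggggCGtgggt
Only 3 CpGs lie in these 250 bases. The first, at -223 bases from the start, was covered by 0 WT reads and 1 unmethylated Tet1-null read. The next, at -201 bases, had no read in either pool. The last, at -7 bases, held 0 methylated of 2 WT reads and 0 of 6 Tet1-null reads. The sequence holds TTTGCATTACAATG, known as the joint Oct4 and Sox2 element of this promoter, at bases 176 to 189 on the plus strand. Searched on both strands, this motif was present in 2 of 32851 RefSeq promoter windows of 250 bases (0.00609%), both of them overlapping windows of Nanog. Its parts were commoner, with TTTGCAT in 4.12% and ACAATG in 10.7% of windows. It contains no CpG, and the nearest CpG is 55 bases away, so the tables give no methylation value within it.

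The Nanog start was free of methylated reads in both pools. Within 1 kb on each side, 0 of 51 WT reads at 25 sites were methylated, which allows a level of up to 5.88%. In the Tet1-null pool 0 of 85 reads at 29 sites were methylated, which allows up to 3.53%. Within 2 kb on each side the counts were 0 of 88 and 2 of 176 reads (1.14% in the Tet1-null pool). A difference between the pools was not detectable at this depth. Among 3250 gene starts placed by the same method with 20 to 39 CpG positions in the same 2 kb (Nanog had 31), the WT pool had no methylated read at 44.5% and the Tet1-null pool none at 28.6%. Both were at 0 in 14.4% of them, so a start such as that of Nanog is not rare among starts of like density. Those 3250 starts together were at 2.81% and 3.72%.

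The interval without a methylated read around the Nanog start was 4.97 kb long. It runs between neighbouring sites with a methylated read, so holding none follows from how it was drawn. At this depth it is not shown to be unmethylated. From 122656431 to 122661396 no methylated read appeared in either pool over 63 CpG positions, with 96 WT and 164 Tet1-null reads. Of all such intervals in the span it held the second most reads, after one of 5.39 kb between Dppa3 and Nanog at 122613035 to 122618427 with 97 and 207 reads.

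Further into Nanog a few methylated reads were present. From 1 kb before the start to the right edge of the span, 5 of 156 WT reads (3.21%) and 1 of 249 Tet1-null reads (0.402%) were methylated. The difference was -2.80 points (Newcombe 95% interval -6.89 to -0.211), and -2.84 points (-7.07 to -0.223) at sites listed in both pools. It was the only interval of the 5 sections of the span that left out 0, with no adjustment for the 5 sections. Their bounds were set after the values had been seen, so the interval is a description and not a test. It rested on few methylated reads, counted per CpG site. The WT ones were at separate sites between 4195 and 6734 bases after the start, and the single Tet1-null one 3890 bases after it. The WT sites at 5865 and 5888 bases lay close enough for 1 read to cover both. Nor was such an interval particular to Nanog. In the 23 kb block from 122619001, between Dppa3 and Nanog, 15 of 426 WT reads (3.52%) and 8 of 624 Tet1-null reads (1.28%) were methylated. That difference was -2.24 points (-4.53 to -0.395), while the intervals of the other blocks of the span included 0.

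**Figure D1:**
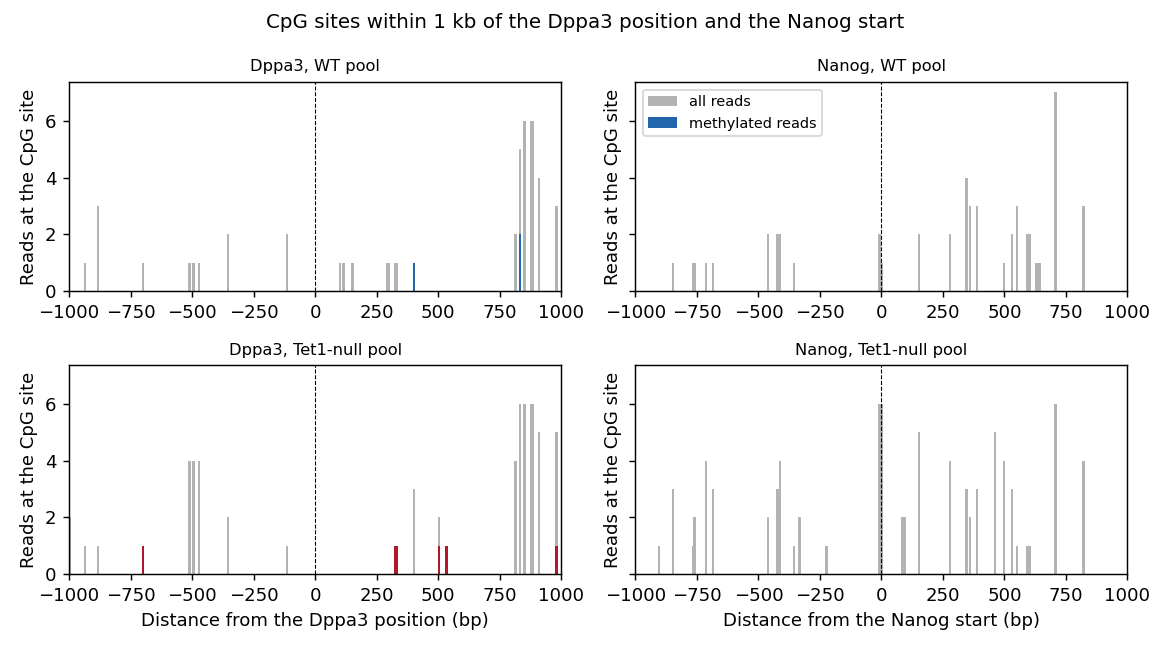
Reads at each CpG site (vertical axis, bars) by distance in bp from the Dppa3 position (left) and the Nanog start (right), for the WT pool (top) and the Tet1-null pool (bottom), with methylated reads coloured over all reads in grey. No bar at Nanog is coloured, while Dppa3 shows 3 methylated of 55 WT reads and 7 of 71 Tet1-null reads.

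Dppa3 had the highest level of the sections of the span in both pools. Its interval overlapped that of the whole span in the WT pool and lay above it (2.15 to 3.29%) in the Tet1-null pool. As the bounds of the section were set after the values had been seen, this is a description and not a test. From 1 kb before to 5 kb after its position, 10 of 146 WT reads were methylated (6.85%, Wilson 95% interval 3.76 to 12.1%). In the Tet1-null pool 12 of 183 reads were (6.56%, 3.79 to 11.1%). The difference of -0.292 points had an interval of -6.27 to 5.21 points. Of the 10 methylated WT reads, 6 were at 5 neighbouring sites from 122578771 to 122578882, where the Tet1-null pool had no read. At the 51 sites of this section listed in both pools the levels were 3.70% and 5.26%, so the WT value moved by over 1.5 times with the choice of sites, and the Tet1-null value was then below the 6.15% of the section at the Apobec1 start.

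Within 1 kb of the Dppa3 position 3 of 55 WT reads (5.45%) and 7 of 71 Tet1-null reads (9.86%) were methylated, a difference of 4.40 points whose interval of -6.24 to 14.2 points included 0. Most of these reads lay after the position, where 3 of 43 WT reads (6.98%) and 6 of 51 Tet1-null reads (11.8%) were methylated, against 0 of 12 and 1 of 20 in the 1 kb before it. No site there was methylated in both pools, but few could be compared. In the WT pool they were at 122576402 (1 of 1 reads) and 122576833 (2 of 5), where the Tet1-null pool had 0 of 3 and 0 of 6. In the Tet1-null pool they were 1 read each at 7 other sites, of which 3 had no WT read, 3 had 1 WT read and 1 had 3. At 122576851, 122576878 and 122576884, where both pools had 6 reads, no read was methylated.

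The longer of the remaining sections were nearer to the level of the span than Dppa3 was, in both pools. The stretch from Apobec1 to Dppa3 that holds Gdf3 had 11 methylated of 307 WT reads (3.58%) and 20 of 529 Tet1-null reads (3.78%), a difference of 0.198 points (-2.82 to 2.73). The 75.5 kb between Dppa3 and Nanog, where RefSeq lists no protein-coding gene, had 36 of 1198 (3.01%) and 45 of 2031 (2.22%), a difference of -0.789 points (-2.05 to 0.317). The left end with the Apobec1 start had 0 of 45 WT reads, which allows up to 6.67%, and 4 of 95 Tet1-null reads (4.21%). None of these 3 intervals left out 0.

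**Figure D2:**
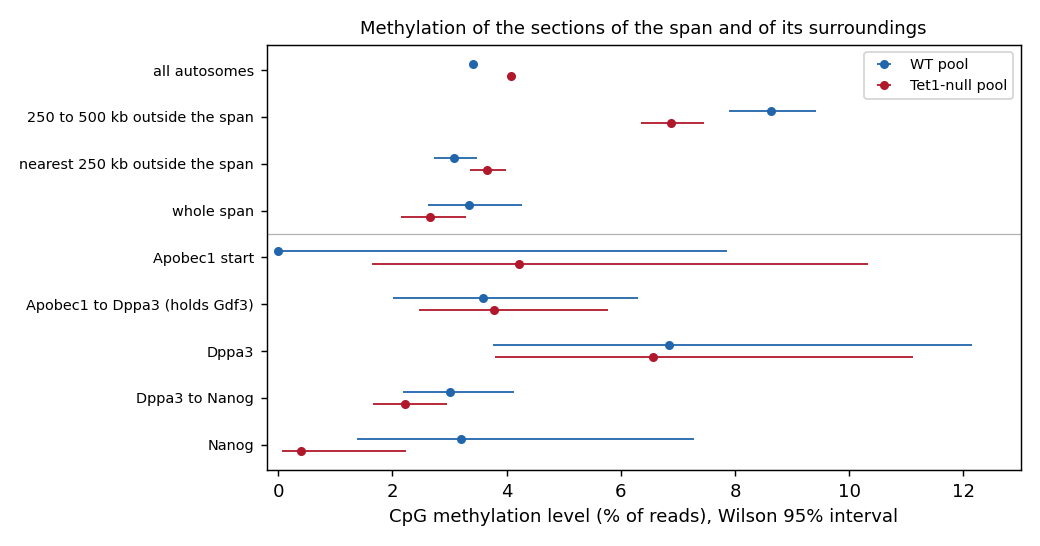
Methylation level in percent of reads (horizontal axis) for the surroundings, the whole span and its 5 sections, with the WT pool in blue, the Tet1-null pool in red and Wilson 95% intervals as bars. Dppa3 has the highest level of the sections in both pools, 6.85% and 6.56%, and Nanog the lowest Tet1-null level, 0.402%.

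No single window of 1 kb was called different. Of the 114 windows with a CpG position, 28 met the minimum of 5 positions shared by the pools and 20 reads per pool. A two-sided Fisher's exact test, adjusted by Benjamini-Hochberg over all 372073 such windows of the autosomes and the X called 0 of these 28 at an adjusted p under 0.05 and 20 points or more. Genome-wide 0.161% of windows were called, 0.097% with the Tet1-null pool higher and 0.0637% with it lower. No call is thus the usual outcome for 28 windows. The highest WT level among the 28 was 12.3%, so a Tet1-null level lower by 20 points could not occur there. At an unadjusted p under 0.05 there were also 0 of 28, against 4.48% of windows in the genome, and 0 of 28 by a quasi-binomial F test. The test compares the reads of 2 pools, not the genotypes, and the median window of the span had 30.5 WT and 46.5 Tet1-null reads. The Tet1-null level was higher in 9 windows, lower in 11 and equal in 8, with a median difference of 0 points, which was also the median over the genome. Genome-wide 40.8% of windows were higher and 31.1% lower.

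No tested window was highly methylated. No level exceeded 12.3% (WT) or 11.8% (Tet1-null), and 0 windows reached 20%, a level reached by 3.53% and 4.25% of windows in the genome. With the reads of both pools summed, the highest window was from 122591001, between Dppa3 and Nanog (2 of 27 WT reads, 8 of 72 Tet1-null reads, 10.1% in all). At Dppa3 the windows from 122576001 (3 of 43 and 6 of 51) and 122578001 (7 of 57 and 2 of 37) came next, each at 9.57%. The windows from 122648001 (3 of 30 and 2 of 37, 7.46%) and 122637001 (4 of 72 and 3 of 61, 5.26%), also between Dppa3 and Nanog, followed. The 5 greatest differences included both Dppa3 windows, though most methylated WT reads of that from 122578001 were at sites without a Tet1-null read. The others were from 122663001 in Nanog (2 of 22 and 0 of 30), 122610001 (0 of 28 and 3 of 34) and 122639001 (2 of 31 and 0 of 40). The smallest unadjusted p of the 28 windows was 0.174 by Fisher's exact test, at 122663001, and its adjusted p was 1. The window at the Nanog start, from 122657001, had 0 of 24 and 0 of 51, and the next one 0 of 31 and 0 of 54.

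**Figure D3:**
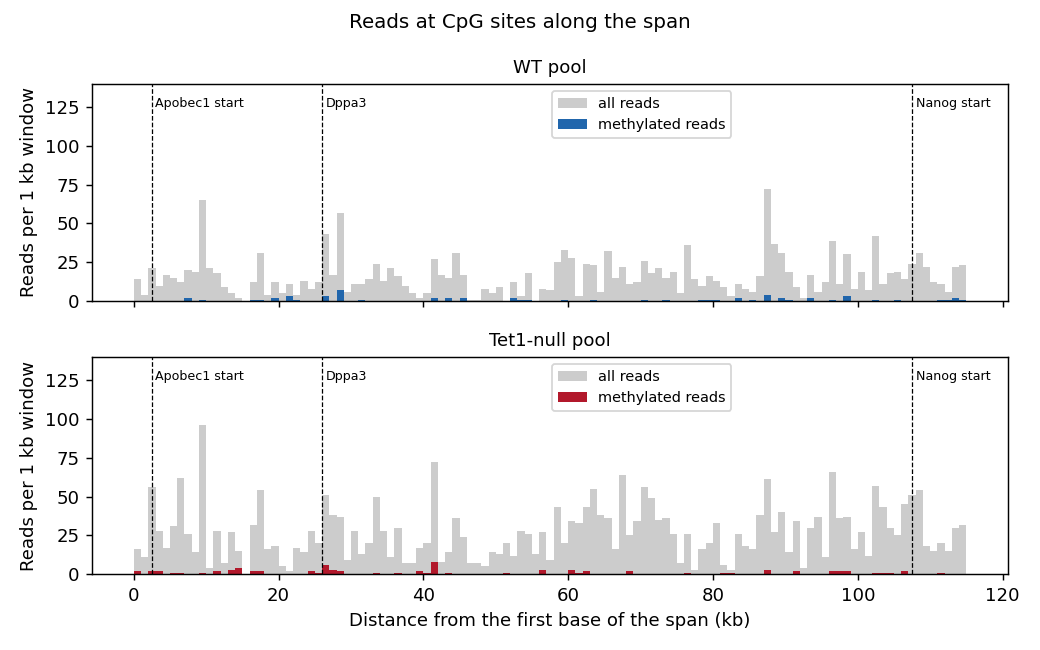
Reads per 1 kb window (vertical axis) by distance in kb from the first base of the span, for the WT pool (top) and the Tet1-null pool (bottom), with methylated reads coloured and all reads in grey, and dashed lines at the Apobec1 start, the Dppa3 position and the Nanog start. Methylated reads are thinly spread, and the windows at the Nanog start hold none in either pool.

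Most sites with a methylated read in the span lay apart from one another. In the WT pool the 62 methylated reads lay at 50 sites, of which 38 held 1 methylated read. With sites within 100 bases joined, they formed 43 clusters, 40 of them of 1 site. The Tet1-null pool had 82 methylated reads at 64 sites in 52 clusters, 44 of them of 1 site, and 49 of its sites held 1 methylated read. A cluster held at most 5 sites (WT) or 4 (Tet1-null), and at most 6 or 8 methylated reads. Of the sites with 3 or more reads, 0 of 243 (WT) and 0 of 522 (Tet1-null) were fully methylated. The counts of clusters and of fully methylated sites have no counterpart outside the span here. They describe the span and do not set it apart. Among the 732 sites covered in both pools, 38 held a methylated WT read and 45 a methylated Tet1-null read, and only 1 site held both. That site, 122591033, had 2 of 2 and 2 of 4 reads methylated. It makes up 2.63% of the WT sites (exact 95% interval 0.0666 to 13.8%) and 2.22% of the Tet1-null sites. In the nearest 250 kb on each side 32 of 169 WT sites (18.9%, 13.3 to 25.7%) and of 242 Tet1-null sites (13.2%) were methylated in both, close to the autosomes at 20.6% and 14.2%. These counts were compared after they had been seen.

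The span was lower than the 500 kb on each side in both pools, but for WT the direction turned with how far the surroundings reached. The 500 kb on each side together were at 5.22% (WT) and 4.89% (Tet1-null). The span minus these flanks was -1.87 points for WT (Newcombe 95% interval -2.69 to -0.878) and -2.23 points for Tet1-null (-2.82 to -1.54). Of the 44 flank blocks of 23 kb or less, 7 were at 10% or more over both pools, with levels of 22.0% and 17.8% over them all, and they held 46.9% of the methylated flank reads of the WT pool and 36.4% of those of the Tet1-null pool. None lay nearer than 184 kb to the span, and 1 of the 7 rested on 2 methylated of 9 reads. The nearest 250 kb on each side were at 3.08% and 3.66%. The parts of the flanks 250 to 500 kb away were at 8.62% and 6.88%. Against the nearest 250 kb the WT level of the span was 0.266 points higher (-0.562 to 1.25), an interval that included 0, and the Tet1-null minus flank value was -1.01 points (-1.62 to -0.306). The 7 high blocks were picked by their own level, so leaving them out lowers the flanks by the choice itself. Without them the WT span was 0.233 points above its flanks (-0.565 to 1.20). The Tet1-null span minus these flanks was -0.798 points (-1.37 to -0.121). In windows of 1 to 9 CpG positions the WT span was 0.766 points above its flanks (-0.611 to 2.69).

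**Figure D4:**
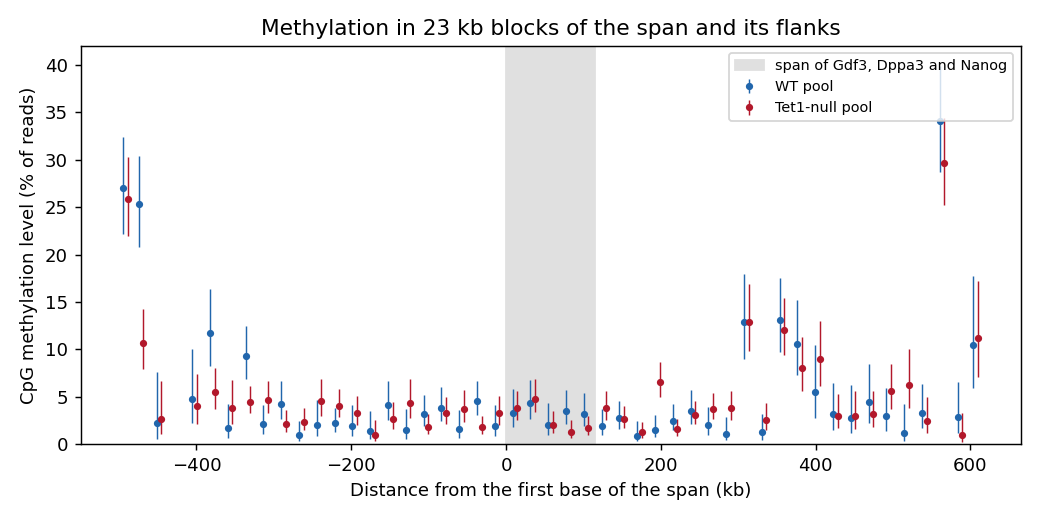
Methylation level in percent of reads (vertical axis, Wilson 95% intervals) in blocks of 23 kb by distance in kb from the first base of the span, WT pool in blue and Tet1-null pool in red, with the span shaded and blocks under 20 reads left out. Of the 7 blocks at 10% or more over both pools, the 6 with 20 or more reads in each pool are shown, all at least 184 kb from the span.

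The Tet1-null level was above the WT level in the nearest 250 kb and over the autosomes, and below it in the span and in the more distant flanks. The nearest 250 kb on each side rose by 0.580 points (0.0792 to 1.07) and the autosomes by 0.674 points, from 3.41% to 4.08%. The flanks 250 to 500 kb away differed by -1.74 points (-2.70 to -0.813) and the left flank of 500 kb by -0.995 points (-1.66 to -0.349). The right flank of 500 kb went the other way, by 0.389 points (-0.312 to 1.07), an interval that included 0. The odds of a methylated read in the Tet1-null pool over those in the WT pool were 0.788 in the span, 1.20 in the nearest 250 kb, 1.21 over the autosomes, 0.783 in the flanks 250 to 500 kb away and 0.808 in the left flank. In the right flank this odds ratio was 1.08. The ratio of the span's odds ratio to that of the nearest 250 kb was 0.659 (Woolf 95% interval 0.456 to 0.953), and to that of the autosomes 0.653 (0.467 to 0.913). Against the full 500 kb flanks it was 0.843 (0.595 to 1.20), and this interval included 1. Against the flanks 250 to 500 kb away it was 1.01 (0.703 to 1.44) and against the left flank 0.975 (0.679 to 1.40), with intervals that included 1. Against the right flank it was 0.728 (0.506 to 1.05), and this interval included 1 as well. In windows of like CpG density the ratio to the autosomes was 0.671 (0.389 to 1.16) with 1 to 9 CpG positions per kb, 0.797 (0.455 to 1.39) with 10 to 19 and 0.453 (0.230 to 0.890) with 20 to 39. Windows of the span with 20 to 39 positions, 13 in all, were at 4.09% (WT) and 2.31% (Tet1-null), where such windows of the autosomes were at 5.63% and 6.81%. The 62 sparsest windows were at 3.89% and 3.06%, against 2.91% and 3.37%, and the 39 windows with 10 to 19 positions at 2.51% and 2.52%, against 3.50% and 4.36%. The Tet1-null span minus the autosomes was -1.43 points (-1.94 to -0.797), while the WT span lay -0.0604 points (-0.788 to 0.860) from them. The Zymo kit converted 2 of 4 WT and 3 of 5 Tet1-null libraries, and the first sequencing run held 1 library, from WT cells. Since libraries were pooled, effects of genotype, kit and run cannot be told apart.

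Set among all stretches of its length, the span was not extreme. Of 21821 tiles of the span's length on the autosomes and the X, 14.2% were called higher in the Tet1-null pool and 1.35% lower by Fisher's exact test at an adjusted p under 0.05, and the span was not called (p = 0.163, adjusted p = 0.358, Fisher's exact test over the reads of both pools). Its WT level was above 62.1% of tiles, whose median was 2.88%. Its Tet1-null level was above only 15.5% of tiles, whose median was 3.58%. The difference of -0.691 points stood above 11.2% of tiles, against a median of 0.639 points, and 26.0% of tiles were lower in the Tet1-null pool.

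**Figure D5:**
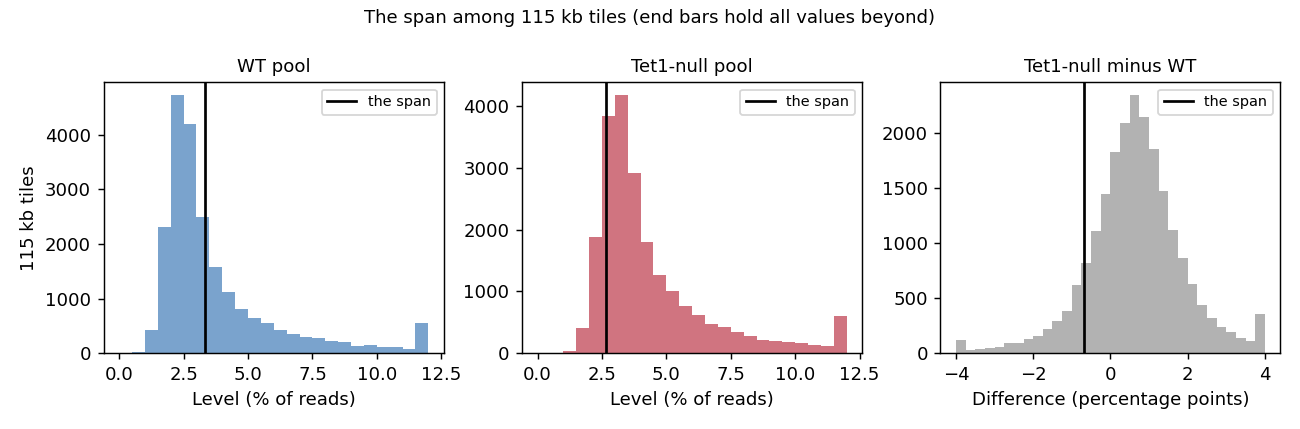
Number of tiles of the span's length (vertical axis) by WT level, Tet1-null level and difference in percentage points (horizontal axes), with the span as a black line and all values beyond the axes gathered in the end bars. The span stands above the median of the tiles in the WT pool and below it in the Tet1-null pool and in the difference.

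Other genes of pluripotency and the germ line were read at their starts, 1 kb on each side. The list held 30 genes and 10 of them could be placed with 20 reads in each pool, a placement that needs 5 or more CpGs in the promoter sequence. In 1 gene the counting interval of the difference was above 0 and in 0 below it. Over all 11056 starts measured the shares were 2.37% above and 4.11% below, which makes 1 of 10 no result about the list. The median difference was -0.447 points over the 10 genes and 0 points over all starts. Pooled over reads, the WT and Tet1-null levels were 3.49% and 3.95% for the list and 2.50% and 2.63% for all starts. Without Pou5f1, which held most WT reads of the list, the direction turned, with 2.68% and 2.17% for the other 9 genes. The gene above 0 was Pou5f1, which encodes the pluripotency factor Oct4, with 46 of 1130 WT reads and 69 of 1165 Tet1-null reads methylated, a difference of 1.85 points (0.0599 to 3.66). Its 33 CpG positions carried many more reads than the 31 of Nanog, and whether all came from this locus was not tested.

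The 3 deepest other genes of the list had intervals that included 0. Utf1, a chromatin-associated pluripotency factor, had 5 of 222 WT and 0 of 162 Tet1-null reads methylated. Kit, the receptor for stem cell factor on germ cells, had 4 of 97 and 10 of 212. Nodal, a TGF-beta ligand as Gdf3 is, had 5 of 113 and 5 of 190. Esrrb and Lin28b, named because they were the 2 list genes without a methylated read in either pool, as Nanog was, had 0 of 39 and 0 of 86 and 0 of 41 and 0 of 88 reads. Of 8 marker genes of other cell types 2 were measured. Cdx2, a trophoblast factor, had 3 of 207 and 4 of 174 reads methylated, and Krt8, an epithelial keratin, 1 of 49 and 3 of 129, with intervals that included 0.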

How the data were processed

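Methylation was measured by whole-genome bisulfite sequencing of 4 WT and 5 Tet1-null libraries. The authors deposited 1 table per genotype with libraries pooled, with a methylated fraction and a read count for every CpG listed. Their product was whole at 100% of sites within a tolerance of 0.0005 in the level. There were 13730600 sites with 30386353 reads for WT and 16372728 sites with 46716079 reads for Tet1-null. Coordinates are mm9 and bedtools was among the tools, per the submitters' processing notes. The aligner is not given in the sources used here, nor is duplicate removal. The authors' deposited filter removed reads by their share of C outside CpG (over 1.2% of bases), and this can lower levels. Bisulfite does not separate 5-methylcytosine from 5-hydroxymethylcytosine.

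From these, read sums per region were computed in Python 3.11.15 (scipy 1.17.1, numpy 2.4.6, pandas 2.3.3) and drawn with matplotlib 3.10.9. Coordinates are counted from 1. Windows and tiles were tested with Fisher's exact test and Benjamini-Hochberg adjustment, since the tables hold reads but no replicates. Tiles needed 25% of the span's reads in each pool. RefSeq promoters with 5 or more CpGs were placed where 80% of them were listed within 8 Mb of their RefSeq position, at 1 place and with no listed site off a CpG. This placed 11424 of 26794 genes, 99.1% of the placed blocks in the order of their neighbours within 200 kb. The procedures were tested on simulated data. Named were the 3 members, list genes whose interval left out 0 with the 3 deepest others, and the 5 highest windows and 5 with the greatest difference. The genes and lists were chosen with earlier results of these data known. The bounds of the sections were set after the values had been seen.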

Additional observations from a re-analysis of the deposited data

How the results depend on the processing

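No paired analysis was possible because the tables pool each genotype's libraries, and leaving out libraries was not run for the same reason. Flanks without blocks at 10% or more, and all comparisons with the autosomes, were chosen after the data had been seen. Among alternative settings of values and counts, 68 kept their direction and side of the threshold, or stayed within the interval or within 1.5 times of a count, and 4 of the span's comparisons reversed. The causes were not tested.

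The Tet1-null level of the span moved to 2.03% where both pools had 2 or more reads per site, 1.12% with 3 or more and 1.93% with 1 draw of reads thinned to equal depth, and the WT level to 5.48% with 5 or more in both. With the chrM level subtracted they were 1.69% (WT) and 1.37% (Tet1-null). Thinning gave a difference of -1.29 points, whose interval left out 0.

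The WT span minus its flanks reversed to 0.266 points with flanks of 250 kb and 0.766 in windows of 1 to 9 CpGs. It also reversed to 0.233 without the high blocks, whose removal lowers the flanks by the choice itself. It was -1.66 with an interval including 0 where both pools had 3 or more reads per site. The Tet1-null one was -1.08, no longer past 0, in windows of 1 to 9 CpGs. The ratio of odds ratios to the flanks became 0.659 with flanks of 250 kb, past 1, and reversed to 1.01 with 10 to 19 CpGs. Against autosomes it no longer excluded 1 with 1 to 9 CpGs (0.671) and 10 to 19 (0.797), and the Tet1-null difference became -0.303 with 1 to 9. The pooled difference over the pathway list reversed to -0.506 points without Pou5f1, a choice also made after seeing the data. With 500 bp windows 2 of 13 windows of the span were at an unadjusted p under 0.05 and 0 were called. Depth limits what single genes show, since 51 and 85 reads at the Nanog start allow levels of up to 5.88% and 3.53%.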
